A study of Mus musculus with 9 samples.

Results

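The proteasome genes described here were the 50 genes whose symbols begin with Psma, Psmb, Psmc, Psmd, Psme, Psmf or Psmg followed by a digit, out of 24964 genes in a table of RNA-seq read counts from mouse hearts. Of these, 49 had enough counts to be tested, among 14347 tested genes of the whole table. Psmb11, a core subunit of the thymus, was not tested: it had 1 count in a single library, of the MI 7 d group. The spelling of the symbol also took in Psmc3ip, which encodes a factor of meiotic recombination and no proteasome protein, and Psma8, whose product replaces an alpha subunit in the testis. These last 2 genes lay below 2.5 counts per 1000000 counts of the library (CPM) in every library, and neither passed the test in any comparison.

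The study asked how gene expression in the heart changes as a myocardial infarction (MI) progresses. Hearts of male C57BL/6JR mice, 8 weeks old in the description of the design, formed 3 groups. In MI 28 d hearts (n = 3) and MI 7 d hearts (n = 3) a silk suture had closed the left anterior descending (LAD) coronary artery for that many days, and in sham hearts (n = 3) the operation was done but the artery was not tied. The labels name the tissue only as heart and do not say whether the infarct, its border or remote muscle was sampled, nor when the sham hearts were taken. No transgene, drug or mutant allele is named for any group.

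The proteasome is the large protease of cytosol and nucleus that degrades proteins tagged with ubiquitin. Its 20S core is a stack of outer alpha rings and inner beta rings, and the beta subunits encoded by Psmb6, Psmb7 and Psmb5 (beta1, beta2 and beta5) carry the cutting sites. In cells exposed to interferon, and in many immune cells without it, Psmb9, Psmb10 and Psmb8 (beta1i, beta2i and beta5i) take the places of these subunits in new particles, called immunoproteasomes, whose products suit display on major histocompatibility complex (MHC) class I molecules. The 19S particle caps the core: its base holds a ring of ATPases (Psmc genes) that unfold the substrate, and its lid (Psmd genes) removes ubiquitin. The PA28 and PA200 caps (Psme genes) open the core without ubiquitin. In heart muscle the proteasome turns over sarcomere and other proteins, and the transcription factor NRF1, encoded by Nfe2l1, drives proteasome genes together when proteasome activity falls.

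Values below are CPM after scaling of each library by the trimmed mean of M values (TMM), and a gene was called higher or lower at an adjusted p under 0.05 in edgeR's quasi-likelihood test. At MI 7 d, 4 of the 49 members were higher and 32 were lower than in sham, that is 8.16% and 65.3% of them, beside 39.0% and 35.4% of all tested genes (74.4% in either direction). At MI 28 d, 4 were higher and 12 lower than in sham (8.16% and 24.5%), beside 29.5% and 25.6% of all tested genes (55.1% in either direction). Between the infarct groups, 29 members were higher and 2 lower at MI 28 d than at MI 7 d (59.2% and 4.08%), beside 29.1% and 26.1% of all tested genes (55.2% in either direction). The median log2 fold change of the members was -0.42 at MI 7 d against sham, -0.13 at MI 28 d against sham and 0.28 at MI 28 d against MI 7 d. Over all tested genes these medians were 0.06, 0.05 and 0.03. Both comparisons with sham use the same 3 sham libraries. The members' summed level was 5104, 4740 and 4381 CPM in the 3 MI 28 d hearts, 3898, 3201 and 3551 CPM in the MI 7 d hearts, and 5253, 5169 and 5255 CPM in the sham hearts.

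These counts depend on how libraries are scaled. With library size alone in place of TMM, the median log2 fold change of all genes shifted by 0.33 for MI 7 d against sham, by 0.25 for MI 28 d against sham and by -0.08 for MI 28 d against MI 7 d. The members then called were 11 higher and 21 lower at MI 7 d against sham, 18 higher and 3 lower at MI 28 d against sham, and 21 higher and 2 lower at MI 28 d against MI 7 d. All tested genes then numbered 7410 higher and 3587 lower at MI 7 d against sham (51.6% and 25%), 6479 higher and 2278 lower at MI 28 d against sham (45.2% and 15.9%), and 3458 higher and 4136 lower at MI 28 d against MI 7 d (24.1% and 28.8%). The members' summed level without TMM was 4795 to 5027 CPM at MI 28 d, 3522 to 4211 CPM at MI 7 d and 4551 to 4590 CPM in sham, so that MI 28 d hearts all lay above sham on this scale while with TMM every sham heart lay above every MI 28 d heart. All 21 members that were lower at MI 7 d under library size alone were among the 32 lower under TMM, and Psmb8, Psmb9, Psmd8 and Psmd10 were higher under TMM, under DESeq2-type size factors and under library size alone.

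**Figure D1:**
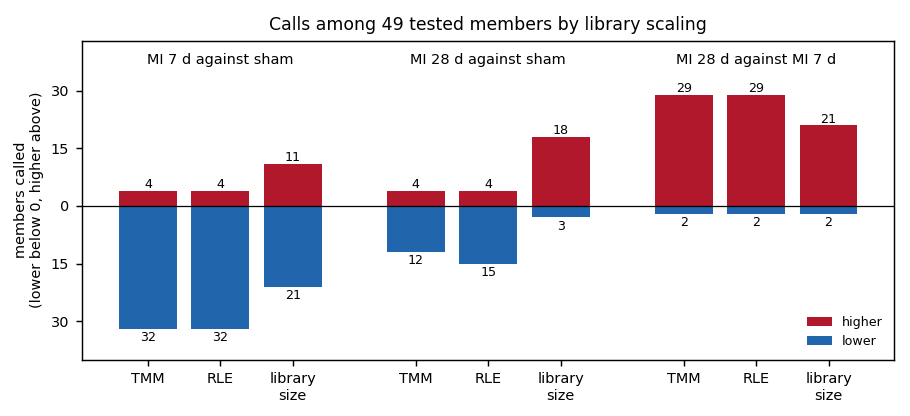
Number of tested proteasome genes called higher (red, above 0) and lower (blue, below 0) in each comparison, under TMM scaling, DESeq2-type (RLE) size factors in edgeR and library size alone. With library size alone, 18 members are called higher and 3 lower at MI 28 d against sham, against 4 and 12 with TMM.

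The libraries held 12351525 to 19238101 counts, and TMM factors lay between 0.869 and 1.13. Sham libraries stood apart in how little they differed: the chi-square of the counts of a pair of libraries, over its degrees of freedom, was 29.7 to 67.4 within MI 28 d, 17.9 to 27.8 within MI 7 d and 1.64 to 1.76 within sham. Counting error alone gives a value near 1, so little spread between the sham libraries was left beyond it. The sham libraries were kept as 3 samples because the design gives 3 mice a group. Whether they hold the spread of 3 separate hearts could not be told from the counts. With the sham counts summed to 1 sample, fewer members were called in both comparisons with sham. Fewer samples weaken the test for every gene, and the share of all tested genes called in that fit is not given here. Markers of cell types moved with the groups. Summed over 6 cardiomyocyte markers (Myh6, Myl2, Actc1, Tnnt2, Tnni3 and Ryr2) the level was 34573 to 56786 CPM in MI 28 d hearts, 15988 to 20635 CPM in MI 7 d hearts and 91641 to 94652 CPM in sham hearts. All 6 were lower in both comparisons with sham. Summed over 6 macrophage markers it was 732.8 to 1185 CPM at MI 28 d, 3708 to 4626 CPM at MI 7 d and 423.1 to 477.1 CPM in sham. All 6 were higher in both comparisons with sham. The 5 T and NK cell markers matched summed to 6.14 to 10.7 CPM at MI 28 d, 14.0 to 15.7 CPM at MI 7 d and 1.31 to 2.67 CPM in sham. Among them Ncr1 was at 0 in 2 of the 3 sham libraries. The 5 fibroblast markers summed to 4888 to 10022 CPM at MI 28 d, 27378 to 35446 CPM at MI 7 d and 1799 to 1844 CPM in sham. Endothelial markers (4 genes) summed to 410.7 to 721.0 CPM at MI 28 d, 606.7 to 697.5 CPM at MI 7 d and 1590 to 1639 CPM in sham. Neutrophil markers (3 genes) summed to 9.03 to 10.2 CPM at MI 28 d, 46.1 to 91.4 CPM at MI 7 d and 7.91 to 10.4 CPM in sham. At MI 28 d they disagreed. S100a8 and S100a9 had means of 0.635 and 0.979 CPM, beside 1.68 and 3.23 CPM in sham, and Csf3r had 8.09 CPM, beside 4.04 CPM in sham. S100a9 was at 25.2 CPM in MI 7 d replicate 1 and at 3.96 and 3.71 CPM in replicates 2 and 3. B cell markers (3 genes) summed to 2.11 to 3.85 CPM at MI 28 d, 1.68 to 9.14 CPM at MI 7 d and 1.48 to 1.93 CPM in sham. Smooth muscle and pericyte markers (3 genes) summed to 344.4 to 713.8 CPM at MI 28 d, 459.8 to 600.8 CPM at MI 7 d and 911.1 to 992.5 CPM in sham. Rgs5 made up most of this sum, with means of 373.0, 391.3 and 868.5 CPM in these groups. The means of the other 2 went the opposite way: 130.7, 99.7 and 74.9 CPM for Myh11 and 14.0, 29.6 and 2.42 CPM for Cnn1. Of the 3 genes, 2 were higher and 1 lower at MI 28 d against sham, and 1 was higher and 1 lower at MI 7 d. Fat cell markers (4 genes) summed to 4.09 to 922.6 CPM at MI 28 d, 2.36 to 1311 CPM at MI 7 d and 4.71 to 8.83 CPM in sham. Adipoq, among them, exceeded 100 CPM in MI 28 d replicates 1 and 3 and in MI 7 d replicate 3. In RNA from a whole tissue, fewer cells of a type and less RNA per cell cannot be told apart, and the part of the changing cell mixture in the results below was not tested.

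The immunoproteasome genes Psmb8 and Psmb9 and the constitutive genes whose products they replace went opposite ways at MI 7 d against sham, so the start regions of these 4 genes are shown here. Each sequence runs from 250 bases before to 50 bases after the transcription start, read 5′ to 3′ on the gene's strand, from RefSeq on GRCm38.p6. They lie at chr17:34197945-34198244 for Psmb8 (plus strand), chr14:54617946-54618245 for Psmb5 (minus strand), chr17:34187281-34187580 for Psmb9 (minus strand) and chr11:70525107-70525406 for Psmb6 (plus strand). Capitals mark matches to the core of the antioxidant response element, TGACNNNGC, which NRF1 can bind, in Psmb5 and Psmb6.
Psmb8: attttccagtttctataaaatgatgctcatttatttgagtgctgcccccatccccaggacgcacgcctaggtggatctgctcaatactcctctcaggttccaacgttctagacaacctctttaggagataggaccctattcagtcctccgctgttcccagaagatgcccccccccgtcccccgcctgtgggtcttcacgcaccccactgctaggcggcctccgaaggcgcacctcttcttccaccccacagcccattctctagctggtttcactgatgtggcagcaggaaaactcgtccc
Psmb5: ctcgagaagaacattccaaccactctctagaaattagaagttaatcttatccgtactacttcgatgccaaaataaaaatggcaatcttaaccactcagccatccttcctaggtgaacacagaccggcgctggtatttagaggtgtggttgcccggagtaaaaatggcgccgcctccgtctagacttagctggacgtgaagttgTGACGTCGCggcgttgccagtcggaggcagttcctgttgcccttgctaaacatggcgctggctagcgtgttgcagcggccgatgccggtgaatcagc
Psmb9: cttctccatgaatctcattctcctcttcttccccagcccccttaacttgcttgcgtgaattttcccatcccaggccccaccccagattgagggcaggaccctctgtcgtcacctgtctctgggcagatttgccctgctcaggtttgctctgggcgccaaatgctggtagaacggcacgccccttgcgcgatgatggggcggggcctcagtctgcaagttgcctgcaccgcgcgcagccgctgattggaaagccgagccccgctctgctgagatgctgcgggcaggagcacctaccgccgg
Psmb6: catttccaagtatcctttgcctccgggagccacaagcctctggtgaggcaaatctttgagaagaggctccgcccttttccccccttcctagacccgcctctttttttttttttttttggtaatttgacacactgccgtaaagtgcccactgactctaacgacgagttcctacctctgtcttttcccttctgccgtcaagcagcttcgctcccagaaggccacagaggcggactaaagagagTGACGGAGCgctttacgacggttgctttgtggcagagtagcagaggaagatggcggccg
The TGACNNNGC match begins 47 bases before the start of Psmb5 and 9 bases before that of Psmb6. The Psmb8 and Psmb9 windows held neither of the motifs searched. The start of Psmb9 lies 226 bases from that of Tap1, which is read in the other direction and encodes a subunit of the peptide pump of class I presentation, and the Psmb8 start lies 10639 bases from that of Tap1, on the same strand. Promoters were found for 42 of the 50 members, in 45 entries. Searched on both strands, TGACNNNGC was in 6 of these 45 (13.3%), against 12.4% of all 32851 promoters. GAAANNGAA, the core of the interferon-stimulated response element, was in 7 of 45 (15.6%), against 8.56% of all promoters. A match describes letters only and is not evidence of a bound site.

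Psmb8, which encodes beta5i, had 38.2, 39.7 and 39.6 CPM at MI 28 d, 69.6, 49.9 and 69.6 CPM at MI 7 d, and 21.9, 22.8 and 22.4 CPM in sham. The 3 groups did not overlap, and every MI 7 d heart lay above every MI 28 d heart. Psmb8 was higher by a log2 fold change of 1.49 ± 0.12 (SE) at MI 7 d against sham (2.82-fold, adjusted p = 3.23e-06) and by 0.81 ± 0.12 at MI 28 d against sham (1.75-fold, adjusted p = 0.000592). At MI 28 d it was lower than at MI 7 d, with a log2 fold change of -0.69 ± 0.12 (adjusted p = 0.000978). Psmb9, which encodes beta1i, had 16.7, 17.6 and 17.2 CPM at MI 28 d, 24.8, 19.7 and 26.9 CPM at MI 7 d, and 9.51, 10.7 and 8.79 CPM in sham. Again no group overlapped another. Its log2 fold change was 1.30 ± 0.13 at MI 7 d against sham (adjusted p = 1.2e-05), 0.83 ± 0.13 at MI 28 d against sham (adjusted p = 0.000726) and -0.47 ± 0.13 at MI 28 d against MI 7 d (adjusted p = 0.0104). The last of these calls was lost without the 3 Adipoq-rich libraries. Psmb8 shares 14.7% of its exonic length with an antisense gene and Psmb9 shares 5.8% with Tap1 on the other strand, and whether reads were counted by strand is not given in the sources used here.

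Psmb10, which encodes beta2i, did not follow this pattern. It had 69.3, 65.9 and 61.0 CPM at MI 28 d, 59.9, 37.5 and 50.4 CPM at MI 7 d, and 45.4, 52.6 and 55.1 CPM in sham. The MI 28 d hearts lay highest, while MI 7 d and sham hearts overlapped. Psmb10 did not pass the test at MI 7 d against sham, with a log2 fold change of -0.05 (adjusted p = 0.779), nor at MI 28 d against sham, with 0.36 (adjusted p = 0.0725). With library size alone the MI 28 d value was 0.60 (adjusted p = 0.00621). Psmb10 was higher at MI 28 d than at MI 7 d by 0.41 ± 0.15 (adjusted p = 0.0438), a call that was lost in 7 of 9 fits that left out a single library.

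Each of the constitutive catalytic genes was lower at MI 7 d than in sham. Psmb5 (beta5) had 63.5, 58.1 and 58.9 CPM at MI 28 d, 48.4, 34.6 and 46.9 CPM at MI 7 d, and 69.7, 69.1 and 66.8 CPM in sham. Every MI 7 d heart lay below every sham heart, and the log2 fold change was -0.66 ± 0.12 (adjusted p = 0.000563). At MI 28 d Psmb5 did not pass against sham (-0.19, adjusted p = 0.196), and it was higher than at MI 7 d by 0.47 (adjusted p = 0.00686). Psmb6 (beta1) had 113.1, 114.7 and 106.4 CPM at MI 28 d, 105.3, 80.9 and 96.9 CPM at MI 7 d, and 146.0, 143.7 and 139.8 CPM in sham. Both infarct groups lay below all sham hearts, with log2 fold changes of -0.60 ± 0.10 at MI 7 d (adjusted p = 0.000289) and -0.36 at MI 28 d (adjusted p = 0.0104). Psmb7 (beta2) had 156.6, 130.7 and 116.2 CPM at MI 28 d, 105.7, 78.2 and 87.4 CPM at MI 7 d, and 202.1, 184.8 and 195.3 CPM in sham. It fell the most of the beta ring genes at MI 7 d against sham, with a log2 fold change of -1.10 ± 0.13 (adjusted p = 4.43e-05), and was lower at MI 28 d too, with -0.53 (adjusted p = 0.008). With library size alone the MI 28 d call of Psmb6 was lost and that of Psmb7 was kept. Of the 50-base stretches of Psmb5 transcripts, 54.1% also occur in other annotated genes, so its counts may depend on how the authors treated reads that map to several places.

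**Figure D2:**
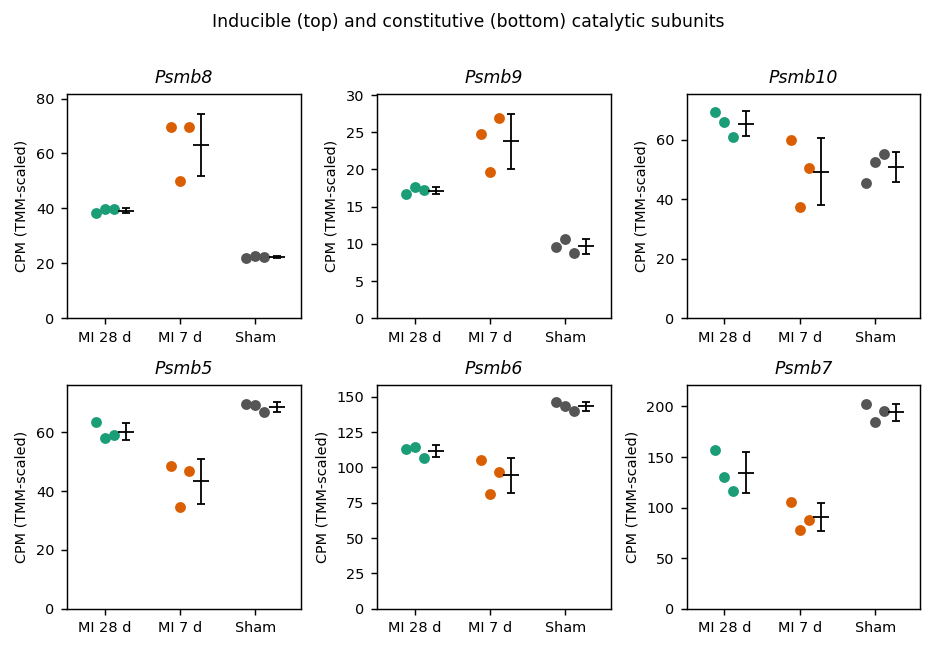
TMM-scaled CPM of the inducible (top) and constitutive (bottom) catalytic genes in each heart, with MI 28 d, MI 7 d and sham from left to right. Points are hearts, and the bar beside them is the mean with its SD (n = 3). Psmb8 lies between 49.9 and 69.6 CPM at MI 7 d and between 21.9 and 22.8 CPM in sham, while Psmb5, Psmb6 and Psmb7 are lower at MI 7 d than in every sham heart.

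A ratio of an inducible to a constitutive gene within a library does not depend on the scaling. The count of Psmb8 over that of Psmb5 was 0.602, 0.684 and 0.672 at MI 28 d, 1.44, 1.44 and 1.48 at MI 7 d, and 0.314, 0.33 and 0.335 in sham. The 3 groups were fully separated, and the ratio was 4.45 times as high at MI 7 d as in sham and 2.0 times as high at MI 28 d as in sham. Psmb9 over Psmb6 was 0.148, 0.153 and 0.162 at MI 28 d, 0.235, 0.243 and 0.277 at MI 7 d, and 0.0651, 0.0742 and 0.0629 in sham. The groups lay in the same order, and the ratio was 3.74 times as high at MI 7 d as in sham. Psmb10 over Psmb7 was 0.443, 0.504 and 0.525 at MI 28 d, 0.567, 0.48 and 0.576 at MI 7 d, and 0.225, 0.285 and 0.282 in sham. Both infarct groups lay above sham, by 1.87 times at MI 28 d and 2.06 times at MI 7 d, and they overlapped with each other. The exact two-sided permutation test gave p = 0.1 for every separated pair of groups, the smallest value that 3 against 3 hearts can give. It was 0.125 after Benjamini-Hochberg adjustment over 15 such exact tests, so the ratios are described and not called.

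**Figure D3:**
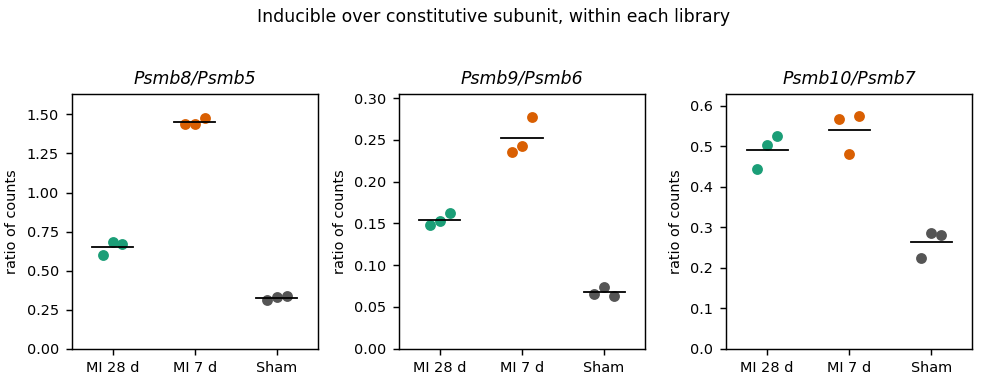
Ratio of the count of each inducible catalytic gene to that of the constitutive gene it can replace, in each heart (points) with the group mean (line), for MI 28 d, MI 7 d and sham from left to right. Psmb8 over Psmb5 lies between 1.44 and 1.48 at MI 7 d, between 0.602 and 0.684 at MI 28 d and between 0.314 and 0.335 in sham.

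Levels of different genes are compared per kilobase of exon, counted over all annotated transcripts of a gene. On that scale Psmb8 had 11.6 ± 0.242 CPM per kb at MI 28 d, 18.6 ± 3.38 at MI 7 d and 6.62 ± 0.134 in sham (SD, n = 3 each). Psmb5 had 66.9 ± 3.27, 48.2 ± 8.44 and 76.2 ± 1.67 CPM per kb in the same groups. With the lengths used it lay above Psmb8 in all 3, although at MI 7 d its counts were below those of Psmb8. Psmb9 reached 4.69 ± 0.114 CPM per kb at MI 28 d, 6.49 ± 1.01 at MI 7 d and 2.64 ± 0.259 in sham, and Psmb6 reached 59.5 ± 2.34, 50.4 ± 6.6 and 76.5 ± 1.69. With these lengths Psmb10 stood apart from the other inducible genes with 38.4 ± 2.44 CPM per kb at MI 28 d, 28.9 ± 6.58 at MI 7 d and 29.9 ± 2.96 in sham. Psmb7 had 39.3 ± 5.97, 26.4 ± 4.09 and 56.7 ± 2.54 in the same groups. Per kilobase, Psmb10 and Psmb7 thus lay within their spread of each other in both infarct groups and apart in sham. The lengths used were 3381 bases for Psmb8, 3660 for Psmb9, 1705 for Psmb10, 899 for Psmb5, 1872 for Psmb6 and 3421 for Psmb7. In CPM, not divided by length, Psmb8 lay above Psmb10 at MI 7 d (means 63.0 and 49.3). It lay below Psmb10 at MI 28 d (39.2 and 65.4) and in sham (22.4 and 51.0). The Psmb8 length exceeds the span of its RefSeq gene from start to end. A shorter transcript in use would raise the level per kb. This could change the order of Psmb8 and Psmb5, and the place of Psmb10 beside Psmb7 and the other inducible genes.

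With TMM scaling, the structural genes of the 20S core were lower at MI 7 d wherever they were called. In the beta ring all 7 genes were lower than in sham (median log2 fold change -0.60), and in the alpha ring 5 of 7 (median -0.40). Of all tested genes 35.4% were lower there. At MI 28 d against sham, 4 beta ring and 2 alpha ring genes were lower, beside 25.6% of all tested genes. Library size alone gave 5 beta ring genes lower, and 2 alpha ring genes higher and 2 lower (alpha ring median -0.07), at MI 7 d against sham. Of all tested genes 51.6% were then higher and 25% lower. At MI 28 d against sham this scaling gave 2 beta ring genes lower and 2 alpha ring genes higher. Of all tested genes it gave 15.9% lower and 45.2% higher. Psma6 (alpha1) had 119.4, 110.5 and 106.0 CPM at MI 28 d, 92.3, 73.2 and 82.5 CPM at MI 7 d, and 132.7, 129.7 and 132.5 CPM in sham. Its MI 7 d hearts lay lowest with no overlap, and its fall was the largest of the alpha ring, with a log2 fold change of -0.67 ± 0.09 at MI 7 d against sham (adjusted p = 0.0001). Per kilobase Psma6 had the highest level of the ring and lid genes at MI 7 d, 67.0 ± 7.76 CPM per kb. Psma5 (alpha5) and Psma3 (alpha7) did not pass at MI 7 d against sham, with log2 fold changes of 0.01 and -0.02; with library size alone they were higher, by 0.34 and 0.31. Of Psma5 50-base stretches, 49.1% are shared with other genes. Psmb2 (beta4) was the only constitutive core gene besides Psmb7 that was lower at MI 28 d against sham under each of the 3 scalings. It had 92.3, 81.5 and 80.9 CPM at MI 28 d, 76.2, 64.3 and 68.9 CPM at MI 7 d, and 117.8, 116.2 and 123.5 CPM in sham. Its log2 fold change was -0.77 ± 0.09 at MI 7 d (adjusted p = 2.17e-05) and -0.49 ± 0.09 at MI 28 d (adjusted p = 0.00113). The beta ring gene with the highest level per kilobase at MI 7 d, Psmb4 (beta7), had 139.0, 125.5 and 119.5 CPM at MI 28 d, 132.1, 96.3 and 115.6 CPM at MI 7 d, and 154.6, 148.7 and 153.7 CPM in sham. Infarct hearts lay below sham at both times, and the fall passed at MI 7 d (log2 fold change -0.41, adjusted p = 0.0081; -0.08 and not passed with library size alone) but not at MI 28 d (-0.25, adjusted p = 0.0847).

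**Figure D4:**
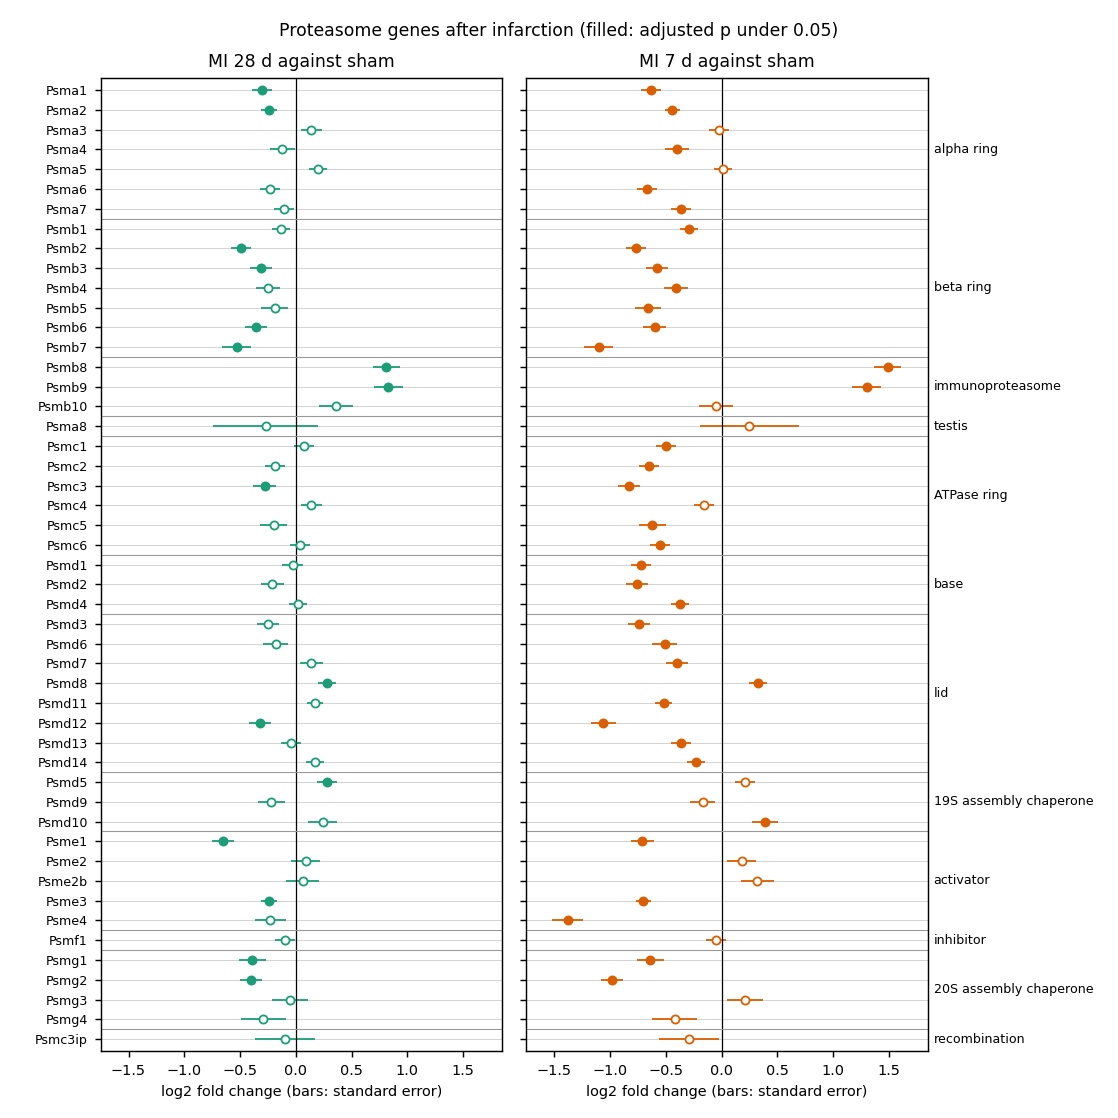
Log2 fold change with its standard error for the 49 tested genes, at MI 28 d against sham (left) and MI 7 d against sham (right), grouped by role. Filled points passed an adjusted p under 0.05. With TMM scaling all 7 beta ring genes are lower at MI 7 d (5 with library size alone), and Psmb8 and Psmb9 reach 1.49 and 1.30.

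Most genes of the 19S particle were lower at MI 7 d than in sham, and their place at MI 28 d depended on the scaling. Over its 17 ATPase, base and lid genes TMM gave 15 lower and 1 higher at MI 7 d against sham. Of all tested genes 35.4% were lower and 39.0% higher there. At MI 28 d against sham 2 of the 17 were lower and 1 higher, beside 25.6% and 29.5% of all tested genes. At MI 28 d, 16 were higher than at MI 7 d, beside 29.1% of all tested genes. The summed level of the 17 was 2457, 2319 and 2128 CPM at MI 28 d, 1828, 1516 and 1644 CPM at MI 7 d, and 2421, 2378 and 2420 CPM in sham. MI 7 d hearts lay below the others while MI 28 d and sham hearts overlapped. Under library size alone, 10 of the 17 were higher at MI 28 d against sham, beside 45.2% of all tested genes. At MI 7 d against sham 1 was higher and 9 lower, beside 51.6% and 25% of all tested genes. Between the infarct groups, 14 were higher at MI 28 d than at MI 7 d, beside 24.1%. The summed level was then 2329 to 2420 CPM at MI 28 d and 2094 to 2116 CPM in sham, with no overlap. In the ATPase ring, Psmc3 (Rpt5) had 223.4, 207.8 and 184.5 CPM at MI 28 d, 156.0, 126.3 and 139.2 CPM at MI 7 d, and 247.2, 249.8 and 253.1 CPM in sham. It had both the largest fall of the ring, with a log2 fold change of -0.83 ± 0.10 at MI 7 d against sham (adjusted p = 4.41e-05), and the highest level per kilobase at MI 7 d, 53.9 CPM per kb beside 53.4 CPM per kb for Psmc1. Psmc4 (Rpt3) was the ATPase gene that did not pass at MI 7 d against sham (-0.16, adjusted p = 0.143). All 6 ATPase genes were higher at MI 28 d than at MI 7 d, by 0.30 to 0.59 on the log2 scale, although the call of Psmc4 was lost with library size alone, without MI 7 d replicate 2 and without MI 28 d replicate 1.

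Among the lid and base genes, Psmd12 (Rpn5) had 116.3, 111.7 and 98.3 CPM at MI 28 d, 74.8, 57.8 and 61.8 CPM at MI 7 d, and 134.2, 137.6 and 134.1 CPM in sham. No group overlapped another, and the log2 fold change was -1.06 ± 0.11 at MI 7 d against sham (adjusted p = 1.02e-05), -0.32 at MI 28 d against sham (adjusted p = 0.0273; lost with library size alone, without any of the sham hearts and without MI 28 d replicate 3) and 0.75 at MI 28 d against MI 7 d (adjusted p = 0.000266). Psmd1 (Rpn2) and Psmd2 (Rpn1), the scaffold subunits of the base, were lower at MI 7 d than in sham, with log2 fold changes of -0.72 and -0.76, and neither passed at MI 28 d against sham. Psmd11 (Rpn6), a lid subunit that clamps the lid to the core, had 106.7, 102.7 and 93.5 CPM at MI 28 d, 64.2, 58.9 and 64.6 CPM at MI 7 d, and 89.5, 86.9 and 93 CPM in sham. Its MI 7 d hearts lay lowest (log2 fold change -0.52, adjusted p = 0.00014) and its MI 28 d hearts above sham (0.17, adjusted p = 0.0798; 0.41 with library size alone, adjusted p = 0.000735).

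With TMM, Psmd8 (Rpn12) moved against the rest of the lid at MI 7 d against sham. At MI 28 d against sham the median log2 fold change of the 8 lid genes was 0.05. Psmd8 had 176.9, 176.7 and 169.1 CPM at MI 28 d, 193.4, 167.8 and 181.4 CPM at MI 7 d, and 144.5, 136.6 and 149.6 CPM in sham. Every infarct heart lay above every sham heart, and Psmd8 was higher by 0.33 ± 0.08 at MI 7 d (adjusted p = 0.00352) and by 0.28 ± 0.08 at MI 28 d (adjusted p = 0.014; lost without sham replicate 2). Of the 3 genes for chaperones that assemble the 19S base, 1 was higher in each comparison with sham. Of all tested genes 39.0% were higher at MI 7 d and 29.5% at MI 28 d. Psmd10 (gankyrin) had 13.0, 10.3 and 12.4 CPM at MI 28 d, 14.6, 12.6 and 12.5 CPM at MI 7 d, and 9.51, 10.2 and 10.6 CPM in sham. It was higher at MI 7 d by 0.39 ± 0.12 (adjusted p = 0.0172), a call lost without sham replicate 1 or without MI 7 d replicate 1. Psmd5 (S5b) had 30.8, 31.9 and 33.3 CPM at MI 28 d, 30.7, 29.6 and 31.0 CPM at MI 7 d, and 26.5, 23.5 and 29.0 CPM in sham. It was higher at MI 28 d by 0.28 ± 0.09 (adjusted p = 0.0234), a call lost without sham replicate 1 or 2 or MI 28 d replicate 2 or 3. Psmd9, the other of these chaperones, did not pass in either comparison with sham.

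Of the activator genes, Psme4 changed most. It encodes PA200, a large nuclear cap linked to the turnover of histones, and had 624.2, 559.1 and 410.1 CPM at MI 28 d, 236.2, 241.3 and 244.9 CPM at MI 7 d, and 627.0, 619.6 and 628.1 CPM in sham. The MI 7 d hearts lay close together and far below the others, and MI 28 d hearts reached the sham range only at the top. Psme4 was lower at MI 7 d than in sham by a log2 fold change of -1.38 ± 0.14 (2.59-fold lower, adjusted p = 1.15e-05), did not pass at MI 28 d against sham (-0.23, adjusted p = 0.17), and was higher at MI 28 d than at MI 7 d by 1.14 ± 0.14 (adjusted p = 0.000115). This was the largest fall of any member, and with library size alone it was -1.04 (adjusted p = 2.03e-05).

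PA28alpha and PA28beta form 1 ring together and are known interferon targets, yet their genes, Psme1 and Psme2, differed. Psme1 had 101.8, 88.1 and 93.3 CPM at MI 28 d, 98.3, 76.2 and 96.1 CPM at MI 7 d, and 144.4, 151.2 and 148.2 CPM in sham. Both infarct groups lay below sham and overlapped with each other. Psme1 was lower than in sham at both times, with log2 fold changes of -0.71 at MI 7 d (adjusted p = 0.000149) and -0.65 at MI 28 d (adjusted p = 0.000733). Both still passed with library size alone, at -0.38 and -0.40. Psme2 had 65.8, 57.3 and 66.1 CPM at MI 28 d, 78.1, 53.3 and 70.8 CPM at MI 7 d, and 58.6, 58.8 and 60.5 CPM in sham. All groups overlapped, and no comparison passed (adjusted p = 0.215 at MI 7 d and 0.578 at MI 28 d against sham). With library size alone Psme2 was higher in both, by 0.52 (adjusted p = 0.00498) and 0.34 (adjusted p = 0.0483). Its copy Psme2b, which shares 69.3% of its 50-base stretches with other genes, lay between 4.1 and 5.84 CPM in all hearts and did not pass. Psme2 itself shares 28.3% of its 50-base stretches with Psme2b. Counts of Psme2, and sums that include it, may thus depend on how reads that map to several places were treated. Psme3, which encodes the nuclear PA28gamma, had 85.7, 82.9 and 75.1 CPM at MI 28 d, 59.0, 56.8 and 61.2 CPM at MI 7 d, and 96.8, 97.8 and 93.8 CPM in sham. No group overlapped another, and Psme3 had log2 fold changes of -0.70 ± 0.07 at MI 7 d (adjusted p = 1.15e-05) and -0.24 at MI 28 d (adjusted p = 0.0157) against sham, although with library size alone the MI 28 d value was 0.00.

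**Figure D5:**
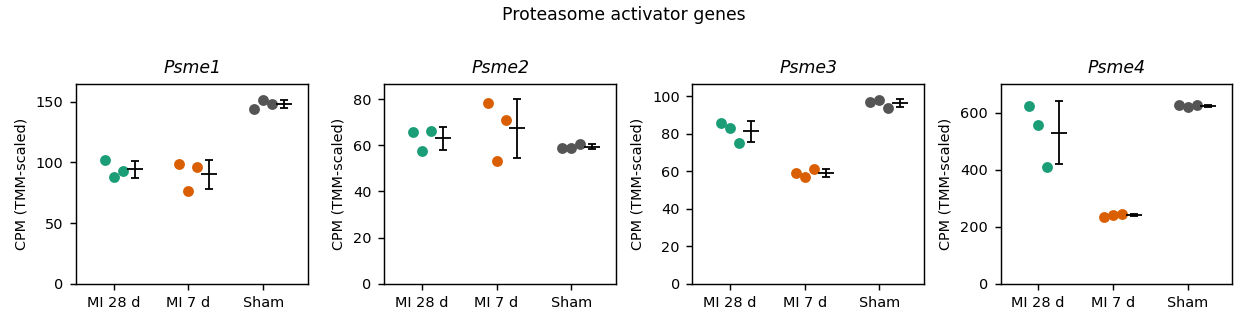
TMM-scaled CPM of the activator genes Psme1 to Psme4 in each heart, with MI 28 d, MI 7 d and sham from left to right; the bar is the mean with its SD (n = 3). Psme4 lies between 236.2 and 244.9 CPM at MI 7 d and between 619.6 and 628.1 CPM in sham.

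The summed count of Psme1 and Psme2 over that of Psme4 was 0.269, 0.26 and 0.389 at MI 28 d, 0.747, 0.537 and 0.681 at MI 7 d, and 0.324, 0.339 and 0.332 in sham. MI 7 d hearts lay above all others, 1.96 times as high as sham (exact two-sided permutation p = 0.1, the smallest possible), and MI 28 d and sham hearts overlapped. Psmf1, which encodes the inhibitor PI31, had 28.5, 30 and 26 CPM at MI 28 d, 30.8, 27.6 and 29.3 CPM at MI 7 d, and 32.2, 28.0 and 30.7 CPM in sham. All groups overlapped and no comparison passed, with log2 fold changes of -0.05 at MI 7 d (adjusted p = 0.623) and -0.10 at MI 28 d (adjusted p = 0.353) against sham.

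The chaperones of 20S assembly are encoded by Psmg1 to Psmg4, and their products work in the pairs PAC1 with PAC2 and PAC3 with PAC4. Psmg1 (PAC1) had 14.9, 12.3 and 13.9 CPM at MI 28 d, 12.2, 11.2 and 11.2 CPM at MI 7 d, and 16.3, 17.3 and 20.2 CPM in sham. It lay below sham in every infarct heart, with log2 fold changes of -0.64 ± 0.12 at MI 7 d (adjusted p = 0.000705) and -0.39 ± 0.12 at MI 28 d (adjusted p = 0.0182; lost without sham replicate 3 or MI 28 d replicate 2, and with library size alone). Psmg2 (PAC2) had 23.8, 23 and 22.7 CPM at MI 28 d, 17.4, 14.3 and 15 CPM at MI 7 d, and 32.7, 29.9 and 29.2 CPM in sham. No group overlapped another. Its log2 fold change was -0.98 ± 0.10 at MI 7 d (adjusted p = 9.99e-06) and -0.40 ± 0.10 at MI 28 d (adjusted p = 0.00595; lost with library size alone). Psmg3 (PAC3) had 6.77, 4.9 and 5.62 CPM at MI 28 d, 7.46, 6.14 and 7.03 CPM at MI 7 d, and 5.5, 6.25 and 6.08 CPM in sham. Psmg4 (PAC4) had 5.31, 5.33 and 6.6 CPM at MI 28 d, 5.97, 4.51 and 5.29 CPM at MI 7 d, and 8.81, 6.44 and 5.92 CPM in sham. Neither passed in any comparison (adjusted p against sham of 0.263 at MI 7 d and 0.831 at MI 28 d for Psmg3, and of 0.0733 and 0.229 for Psmg4). At these levels a change of the size seen in Psmg1 is harder to detect: the standard errors at MI 7 d were 0.16 for Psmg3 and 0.20 for Psmg4.

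Variation between hearts was not the same for every member. The median coefficient of variation of the members' CPM was 7.02% at MI 28 d, 10.9% at MI 7 d and 3.03% in sham. For Psme4 the order was another, with 20.7% at MI 28 d, 1.82% at MI 7 d and 0.738% in sham. Replicate 2 of MI 7 d had the lowest level of its group for 44 of the 49 tested members. Without that heart, 5 members were higher and 31 lower at MI 7 d than in sham. In the MI 28 d group replicate 3 was lowest for 31 members, while in sham no replicate was lowest for more than 18.

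A list of 30 genes that act with the proteasome, of which 29 were found and tested, holds its transcription factors, assembly factors, ubiquitin genes, shuttle factors and deubiquitinating enzymes. Of these, 4 were higher and 21 lower at MI 7 d than in sham, beside 39.0% and 35.4% of all tested genes. At MI 28 d against sham 4 were higher and 8 lower, beside 29.5% and 25.6% of all tested genes. Between the infarct groups, 17 were higher and 1 lower at MI 28 d than at MI 7 d, beside 29.1% and 26.1%. With library size alone 7 were higher and 10 lower at MI 7 d against sham, beside 51.6% and 25% of all tested genes. At MI 28 d against sham that scaling gave 14 higher and 3 lower, beside 45.2% and 15.9%. Nfe2l1, which encodes NRF1, had 787.3, 830.5 and 690.5 CPM at MI 28 d, 368.3, 361.8 and 365.3 CPM at MI 7 d, and 768.0, 758.5 and 783.9 CPM in sham. Its MI 7 d hearts lay far below the others (log2 fold change -1.08 ± 0.09, adjusted p = 3.61e-06), and its MI 28 d hearts spread around sham (adjusted p = 0.992). Lower at MI 7 d by more were AI314180, also named Ecpas, whose product holds the core and cap together, with -1.35 ± 0.10 (adjusted p = 1.53e-06), and the shuttle factor gene Ubqln4, with -1.47 ± 0.10 (adjusted p = 1.21e-06). Both AI314180 and Ubqln4 were lower at MI 28 d too, with log2 fold changes of -0.51 and -0.55.

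Genes of MHC class I presentation, which uses the peptides the proteasome makes, were mostly higher. Of 20 on the list 17 were tested. At MI 7 d against sham 12 were higher and 2 lower, beside 39.0% and 35.4% of all tested genes. At MI 28 d against sham 11 were higher and 1 lower, beside 29.5% and 25.6% of all tested genes. At MI 28 d against MI 7 d 1 was higher and 9 lower, beside 29.1% and 26.1% of all tested genes. Tap1, the neighbour of Psmb9, had 49.9, 62.2 and 39.8 CPM at MI 28 d, 84.6, 66.4 and 82.4 CPM at MI 7 d, and 22.3, 23.4 and 25.7 CPM in sham. Its log2 fold changes were 1.71 ± 0.16 at MI 7 d (adjusted p = 7.6e-06) and 1.09 ± 0.16 at MI 28 d (adjusted p = 0.000497) against sham. No group of Tap1 overlapped another, as in Psmb8 and Psmb9. B2m, the light chain of class I molecules, was higher by 1.74 at MI 7 d and 1.35 at MI 28 d. The heavy chain genes H2-D1 and H2-K1, whose reads may be split with near copies, were higher by 2.19 and 2.09 at MI 7 d and by 1.43 and 1.75 at MI 28 d.

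Of 28 genes of interferon signalling and its targets, 27 were tested and Ifng was not. Among them 17 were higher and 6 lower at MI 7 d than in sham, beside 39.0% and 35.4% of all tested genes. With library size alone these were 20 and 1, beside 51.6% and 25% of all tested genes. At MI 28 d against sham 16 were higher and 2 lower, beside 29.5% and 25.6% of all tested genes. Between the infarct groups, 6 were higher and 7 lower at MI 28 d than at MI 7 d, beside 29.1% and 26.1%. The chemokine gene Cxcl10 had 10.4, 15.3 and 8.98 CPM at MI 28 d, 11.6, 15.7 and 11.2 CPM at MI 7 d, and 0.785, 0.92 and 1.01 CPM in sham. It was higher by 3.81 ± 0.28 at MI 7 d (adjusted p = 1.44e-06) and 3.66 ± 0.28 at MI 28 d (adjusted p = 1.71e-05), with the infarct groups overlapping. Irf8, a transcription factor gene of myeloid cells, had 19.4, 23.3 and 12.7 CPM at MI 28 d, 57.1, 59.2 and 60.1 CPM at MI 7 d, and 10.3, 10.3 and 10.6 CPM in sham. It was lower at MI 28 d than at MI 7 d by a log2 fold change of -1.67 (adjusted p = 5.31e-05). The interferon-inducible GTPase gene Irgm2 had 147.2, 175.2 and 100.1 CPM at MI 28 d, 72.5, 63.4 and 79.5 CPM at MI 7 d, and 46, 50 and 58 CPM in sham. It was thus higher at MI 28 d than at MI 7 d (0.97, adjusted p = 0.00166), unlike Psmb8 and Psmb9. Socs1, which encodes a brake on this signalling, was higher at MI 7 d by 1.62 ± 0.28 (adjusted p = 0.000523) and did not pass at MI 28 d (0.67, adjusted p = 0.0768).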

How the data were processed

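RNA-seq was done on total RNA of 9 hearts in 3 groups of 3 mice, with libraries made by the KAPA RNA HyperPrep kit, per the labels' protocols. The values are whole-number read counts per gene, deposited by the authors without normalization; Trim Galore, STAR, featureCounts and the mm10 build are named in the submitters' processing notes. No version is named there, and the sources used here do not give the annotation, any strand setting or how multi-mapping reads were handled. Groups and replicate numbers came from the sample titles, and no sample column was left out.

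Counts were fitted with edgeR 4.0.16 in R 4.3.3 (glmQLFit and glmQLFTest, TMM scaling, all 9 libraries, a mean per group and no covariate). Genes were filtered with filterByExpr by group, with a minimum count of 10 and a minimum total of 15, and p-values were adjusted by Benjamini-Hochberg over all 14347 genes tested. The standard error of a log2 fold change was taken from the fold change and its F statistic. The scripts were tested on simulated data. Ratios of counts within a library were compared by exact permutation. With 3 hearts a group, p-values measure the spread between these hearts, and counting error at these depths is a part of it. The 3 groups shared an estimate of the spread, although the sham libraries differed from each other far less than the infarct libraries. If the sham libraries do not hold the full spread between hearts, p-values against sham may be too small. Alternatives were scaling by library size alone or by DESeq2-type size factors, DESeq2 1.42.0 itself, a fit of unfiltered genes, only the libraries compared, a replicate block, a pseudocount of 0.5 for the ratios, and leaving out each library. Added after seeing the data were a fit without the 3 libraries with Adipoq over 100 CPM, limma 3.58.1 (voom with group weights) and a fit with the sham libraries summed to 1.

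Members were assigned to roles by hand. Named genes are Psmb5 to Psmb10, all Psme, Psmf1 and Psmg genes, in each other role group the member with the largest rise, the largest fall and the highest level at MI 7 d, members that moved against their group, and up to 4 genes of each pathway list by size of change; Psma3, Psmb2, Psmd1, Psmd2, Psmd5, Psmd9 and Psmd11 were named after their values were seen. The members, the 3 pathway lists and the 9 marker lists were chosen with earlier results of these data known. Promoters came from a RefSeq table on GRCm38.p6, and exonic lengths, overlaps and shared 50-base stretches from GENCODE M21. Some genes of the lists are not reported here by name. Protein sequences were not used here.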

Additional observations from a re-analysis of the deposited data

Results flagged for a closer look

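For 31 of the 49 tested members (63.3%, beside 55.2% of all tested genes), MI 28 d hearts differed from MI 7 d hearts by edgeR's quasi-likelihood test, so that the change after infarction differed between the 2 times. As log2 fold changes at MI 28 d against MI 7 d, the core genes Psma1, Psma2, Psma4, Psma6 and Psma7 gave 0.33, 0.2, 0.28, 0.44 and 0.25. Psmb2, Psmb3, Psmb5 and Psmb7 gave 0.28, 0.27, 0.47 and 0.57. The inducible genes Psmb8, Psmb9 and Psmb10 gave -0.69, -0.47 and 0.41, and Psmb8 and Psmb9 were the only members lower at MI 28 d. The ATPase genes Psmc1 to Psmc6 gave 0.57, 0.46, 0.55, 0.3, 0.42 and 0.59. Psmd1, Psmd2, Psmd3, Psmd4, Psmd6 and Psmd7 gave 0.69, 0.55, 0.49, 0.39, 0.33 and 0.54, and Psmd11, Psmd12, Psmd13 and Psmd14 gave 0.69, 0.75, 0.32 and 0.41. The activator genes Psme3 and Psme4 gave 0.46 and 1.14, and the chaperone gene Psmg2 gave 0.57. The calls of Psma2, Psma4, Psma7, Psmb3 and Psmb10 were lost in most fits that left out a single library. The summed cardiomyocyte markers were 34573 to 56786 CPM at MI 28 d and 15988 to 20635 CPM at MI 7 d, and the part of this difference in these values was not tested. Groups of 3 hearts were not searched for single outlying hearts.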

How the results depend on the processing

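Of the members called, 2 of 4 higher and 21 of 32 lower at MI 7 d against sham kept their call in every fit run. At MI 28 d against sham, 2 of 4 higher (Psmb8 and Psmb9) and 2 of 12 lower (Psmb2 and Psme1) did so. At MI 28 d against MI 7 d, 18 of 29 higher and 1 of 2 lower (Psmb8) did so. Counts are given as higher and lower. With library size alone they were 11 and 21 at MI 7 d and 18 and 3 at MI 28 d against sham. For the genes that act with the proteasome they were 7 and 10, then 14 and 3. Class I presentation had 0 lower at MI 28 d against sham, and interferon signalling 1 lower at each time. The members' mean summed level was then 4907 CPM at MI 28 d, 3908.8 CPM at MI 7 d and 4568.0 CPM in sham. The sign of the log2 fold change turned for 18 members at MI 28 d against sham, 8 at MI 7 d against sham and 2 at MI 28 d against MI 7 d. Of these, 14, 4 and 2 were called under neither scaling. Among members whose sign turned, Psma2 (0.00) and Psme3 (0.00) lost a lower call with library size alone at MI 28 d. Psmb1 (0.05) and Psmd14 (0.10) did so at MI 7 d. Of all lower calls against sham, 21 of 32 at MI 7 d and 3 of 12 at MI 28 d were kept. Other members whose sign turned were not called with TMM but called higher with library size alone. They were Psmd1 (0.21) and Psmd13 (0.20) at MI 28 d and Psma3 (0.31) and Psmf1 (0.28) at MI 7 d. Further members were newly called higher without a turn of sign, such as Psma5 (0.34) at MI 7 d. The shift of all genes under this scaling, and the shares of all tested genes called with it, are given above. With the sham libraries summed to 1, 2 members were higher at MI 7 d, and 2 were higher and 2 lower at MI 28 d against sham. Accessory genes then had 2 higher at MI 7 d and 1 higher and 3 lower at MI 28 d. Class I presentation had 0 lower at MI 28 d against sham and 0 higher at MI 28 d against MI 7 d, and interferon signalling had 11 higher and 2 lower at MI 7 d and 9 and 0 at MI 28 d against sham. A single sham sample is assumed there to vary like the other groups, and fewer samples were fitted. Without the 3 Adipoq-rich libraries, 18 members were higher and 1 lower at MI 28 d against MI 7 d. Accessory genes had 2 higher and class I presentation 2 lower at MI 28 d against sham, and at MI 28 d against MI 7 d class I presentation had 5 lower and interferon signalling 11 higher. With only the libraries compared, 18 members and 0 class I genes were higher at MI 28 d against MI 7 d, and DESeq2 gave 2 class I genes lower at MI 28 d against sham. The shares of all tested genes called in the fits with fewer samples are not given here. Counts from those fits are therefore not read as results about the members or lists. Without the Adipoq-rich libraries only replicate 2 of MI 28 d was left in its group. The cause of the differences between fits was not tested. Leaving out each library gave 3 to 5 members higher and 31 to 33 lower at MI 7 d against sham, 2 to 6 and 6 to 18 at MI 28 d against sham, and 20 to 33 and 2 to 3 at MI 28 d against MI 7 d. The MI 28 d counts were lowest without sham replicate 2 (2 higher) and without sham replicate 3 or MI 28 d replicate 2 (6 and 7 lower). For the accessory genes the ranges were 3 to 6 and 20 to 21, then 2 to 4 and 7 to 11, then 12 to 18 and 1 to 2. For class I presentation they were 11 to 14 and 2 to 2, then 10 to 12 and 1 to 2, then 0 to 1 and 6 to 10, and for interferon signalling 14 to 17 and 5 to 6, then 15 to 17 and 2 to 2, then 5 to 10 and 5 to 7, in the same order of comparisons. Accessory genes higher at MI 28 d against sham numbered 2 without sham replicate 2 or 3, accessory genes lower at MI 28 d against MI 7 d 2 without MI 7 d replicate 1, class I genes lower at MI 28 d against sham 2 without MI 28 d replicate 3, and interferon genes higher at MI 28 d against MI 7 d 10 without MI 28 d replicate 3. The class I gene higher at MI 28 d against MI 7 d was lost without MI 7 d replicate 1 or 3 or MI 28 d replicate 1 or 2. Replicate numbers did not pair the hearts: deviations of same-numbered hearts correlated by -0.091 to 0.304, and not every heart correlated best with its own number. With a replicate block, 4 members were higher and 32 lower at MI 7 d against sham, 4 and 13 at MI 28 d against sham, and 28 and 2 at MI 28 d against MI 7 d. Genes below about 10 CPM, such as Psmg3 and Psmg4, had the widest standard errors.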
